A study of Mus musculus with 12 samples.

Results

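The 78 genes described here carry the names of mitochondrial ribosomal proteins, and all but Mrps36 encode proteins placed in the mitochondrial ribosome. They are all the genes of the deposited table, of 35999 in all, whose name is Mrpl or Mrps followed by a number and at most 1 letter, and no measured value entered this choice. By name, 49 belong to the large subunit (Mrpl) and 29 to the small subunit (Mrps), with Mrps36 counted among the latter. RNA was sequenced from LSK cells, the bone marrow fraction without lineage markers and with Sca-1 and KIT at its surface, home to hematopoietic stem cells and early progenitors. There were 6 libraries labelled WT and 6 labelled KO, from mice with the genotype WT or FancgKO (Fancg-/-, a knockout in the whole animal), with 1 library per mouse and replicate numbers 2 to 7 under both labels. No treatment is given in the labels, and the strain and age of the mice are not given in the sources used here. The comparison asks how transcript levels differ between LSK cells of mice with and without Fancg, a gene of the Fanconi anemia DNA repair pathway.

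The mitochondrial ribosome translates the few proteins encoded by the mitochondrial genome, which are core subunits of the respiratory chain and the ATP synthase. Its own proteins are encoded in the nucleus, made in the cytosol and imported. Some descend from bacterial ribosomal proteins, and others were gained in mitochondria. The small subunit holds the mRNA and the decoding centre, and the large subunit joins the amino acids and passes the chain out through a tunnel at the inner membrane. Stem cells of the bone marrow are known to keep a low mitochondrial activity that rises as they differentiate.

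Fancg itself did not separate the labels, with a signal of 4.76 to 24.1 in the libraries labelled WT and 4.46 to 14.5 in those labelled KO, so every direction given here is between labels. Signal is the deposited value, read here as estimated counts scaled by 1 size factor in each library. The libraries held roughly 1235086 to 2471271 reads, and KO replicate 7 was the shallowest. Of the 10 LSK markers listed, 9 had a mean signal of at least 10, with mean signals, not set per length, of 620 for Cd34, 343 for Kit and 10.8 for Ly6a, which encodes Sca-1. Procr, at 5.81, was below 10. Summed markers of granulocytes, T cells and macrophages reached at most 6.64 in any library and those of erythroid cells at most 31.8. The summed B cell markers came mostly from Ighm (218). Itga2b, a megakaryocyte and stem cell integrin, was 14.8 ± 2.99 (SD, n = 6) under the WT label and 25.8 ± 9.70 (SD, n = 6) under the KO label (log2 fold change 0.72, exact permutation p = 0.00433), and the part of such shifts in the values of the ribosomal genes was not tested. WT replicate 3 and KO replicate 7 stand apart by low transcripts of 4 Y-linked genes, with summed signals of 26.6 and 49.7. In bulk RNA, fewer cells of a type and less RNA per cell cannot be told apart.

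Promoter sequence was available for 69 of the 78 genes, in 75 RefSeq promoters of the GRCm38.p6 build, each running from 250 bases before to 50 after the transcription start. The core of the binding motif of ETS factors, CCGGAAG on either strand, was found in 26 of the 75 (34.7%), 15 of the large and 11 of the small subunit. It was found in 8.86% of all 32851 promoters and in 19.5% of the 8864 promoters of genes tested below. The NRF1 half-site TGCGCA, which reads the same on both strands, was in 22 (29.3%), against 7.76% of all promoters and 14.7% of those of tested genes. The YY1 core AAGATGG on either strand was in 13 (17.3%), against 6.34% and 7.46%. The ETS and YY1 cores can share up to 3 letters, and a match is only a match of letters. Median GC content was 58.7% in the members' promoters, 52.7% in all promoters and 61.0% in those of tested genes. The windows that follow show 5 members whose values are described below, each 30 bases long, 5′ to 3′ on the strand of the gene, with the motif in capitals. They are Mrps22 (chr9:98601672-98601701, minus strand), Mrpl33 (chr5:31613937-31613966, plus strand), Mrpl43 (chr19:45006436-45006465, minus strand), Mrps18a (chr17:46110967-46110996, plus strand) and Mrps7 (chr11:115604066-115604095, plus strand). The first 4 show the ETS core and the last the NRF1 half-site.
Mrps22: aacctctcgagCCGGAAGttgctctatcga
Mrpl33: ccgcgcatgccCCGGAAGtagtcgttgagc
Mrpl43: caaccccggaaCCGGAAGtcaccggttagt
Mrps18a: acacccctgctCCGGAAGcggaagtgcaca
Mrps7: gcccgaggaaagTGCGCAggctctcatccg
The motif begins between 3 and 62 bases before the RefSeq start in these 5 windows. It is at -11 in Mrps22, -3 in Mrpl33, -12 in Mrpl43, -26 in Mrps18a and -62 in Mrps7. Gene positions printed below come from another annotation, GENCODE, in which the Mrpl33 and Mrps7 windows lie wholly inside the gene. No binding data were analysed, and the members carrying a motif are described together with those that do not.

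Transcripts of the mitochondrial ribosome were detected at small numbers of reads per library. The mean signal over the 12 libraries ran from 3.27 (Mrpl23) to 73.4 (Mrpl1), with a median of 19.4, which corresponds to a median of roughly 19.4 reads per library. Of the 78 members, 76 were above 0 in every library and 2 were at 0 in at least 1. Of the 35999 genes of the table, 8887 reached a mean signal of at least 10, the minimum for testing. Of the 78 members, 59 did, 37 of the large and 22 of the small subunit. Both labels count equally in this mean. The 19 below it were Mrpl14, Mrpl18, Mrpl22, Mrpl23, Mrpl27, Mrpl34, Mrpl35, Mrpl41, Mrpl52, Mrpl53, Mrpl54, Mrpl55, Mrps6, Mrps12, Mrps18c, Mrps21, Mrps23, Mrps28 and Mrps36. They had shorter transcripts, with a median length of 722 bases against 1498 in the members tested.

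Levels can be compared between genes only per length of transcript. Per kb, the mean signal spanned from 1.39 in Mrpl35 to 130 in Mrpl33, with a median of 12.9 in the large and 12.3 in the small subunit. Mrpl33, a small protein of bacterial origin in the large subunit, was followed by Mrpl24 (53.8), Mrpl42 (41.8), Mrpl16 (38.5), Mrps9 (34.5) and Mrpl30 (30.3). The lowest after Mrpl35 were Mrps25 (1.81) and Mrpl19 (2.18). Mean annotated transcript lengths were 3721 bases in Mrpl35, 6073 in Mrps25 and 5000 in Mrpl19, against 478 in Mrpl33. The order depends on these lengths, and which annotated transcripts the cells use was not tested. The gene model of Mrpl33 overlaps Gm43809 on the same strand and Rbks on the other, 42 of the 78 members overlap another annotated gene, and 13 do so on the same strand. How reads were divided between overlapping genes is not given in the sources used here. Mrpl23 has a pseudogene in the table, Mrpl23-ps1, with a mean signal of 15.4. How reads were divided between them is not known, so the value of Mrpl23 is uncertain.

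**Figure D1:**
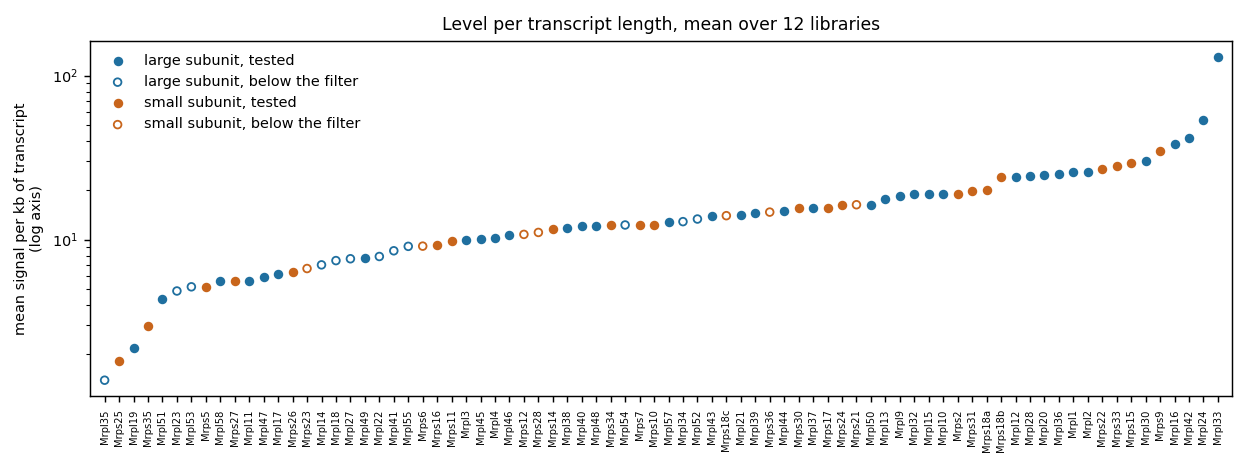
Mean signal per kb of transcript over 12 libraries (log axis) for each of the 78 genes, ordered by level; filled points were tested and open points lie below the minimum mean signal. The large subunit spans 1.39 (Mrpl35) to 130 (Mrpl33) and the small subunit 1.81 (Mrps25) to 34.5 (Mrps9).

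No member differed between the labels after adjustment. In limma's test on log2(signal + 1) over all 8887 genes tested, 2 of 59 members (Mrpl4 higher and Mrps7 lower under the KO label) had an unadjusted p under 0.05. Among all genes tested the share was 3.67%, or 1.98% higher and 1.69% lower. Both members were also beyond 0.5 on the log2 scale, as were 2.62% of all genes. With a block for replicate number the count was 3 of 59, against 5.36%. No member, and 0 of the 8887 genes, had a Benjamini-Hochberg adjusted p under 0.05, the smallest being 0.9996 in limma's test. In exact permutation tests over the 924 divisions of the libraries, 3 of 59 members (Mrpl4, Mrpl42 and Mrps25) had an unadjusted p under 0.05, against 3.83% of all genes tested, and none did after adjustment. In no member did the labels fail to overlap (0.09% of all genes). The counts are thus close to those of any genes of the table. Log2 fold changes, label KO minus label WT, ran from -0.61 (Mrpl19) to 0.62 (Mrps5) with a median of -0.01, against 0.00 over all genes tested, and 28 of 59 were above 0 (47.5%, against 50.7%).

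**Figure D2:**
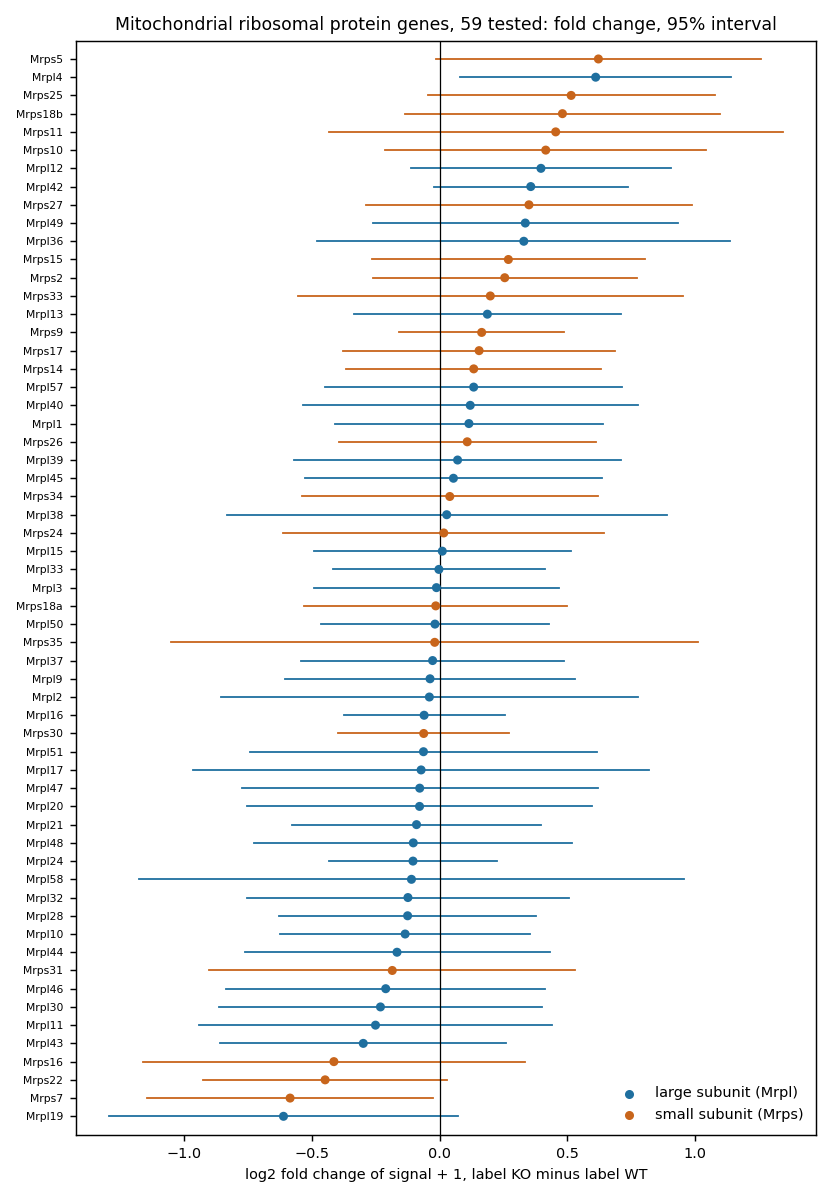
Log2 fold change of signal + 1 (label KO minus label WT, horizontal axis) with its 95% interval from limma for the 59 members tested, ordered by value and coloured by subunit. The intervals of 57 members include 0, and those of Mrpl4 and Mrps7 do not.

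How far the data limit a change follows from the intervals. The standard error of a member's log2 fold change was 0.27 in the median, from 0.15 to 0.50. The 95% interval lay within 1 of 0, which is a doubling or halving, in 47 of 59 members (83.4% of all genes tested), and within 0.5 in 7 of 59 (1923 of 8887 genes tested). The spread between libraries of 1 label had a median coefficient of variation of 35.1% (13.5% to 80.9%), and in 53 of 59 members it was above what counting of reads alone gives, 20.8% in the median.

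The subunits differed in how many members were higher under the KO label, without a difference that was tested. Of the large subunit, 13 of 37 members (35.1%) were above 0, with a median log2 fold change of -0.04. Of the small subunit, 15 of 22 (68.2%) were above 0, with a median of 0.14. Placed by the structure of the ribosome, Mrps30 and Mrps18a belong to the large subunit despite their names, and the counts become 13 of 39 and 15 of 20. By the class in which each protein is listed, 6 of 22 large-subunit and 9 of 11 small-subunit members listed as bacterial were above 0. Of those listed as mitochondrial, 7 of 17 and 6 of 9 were. Mrps18a and Mrps18b are listed as mitochondrial and their paralog Mrps18c as bacterial, so these classes are not a strict split by descent. Members of a list vary together across libraries, so these are counts and not a measure of support. The direction of the large-subunit median turned positive without WT replicate 4 (0.00), WT replicate 6 (0.04) or KO replicate 3 (0.03). When libraries were scaled to the same total or to the total without Lars2, it was 0.04 and 0.01, below the median of all genes tested, which these scalings moved to 0.08 and 0.06. The small-subunit median stayed above 0 in these cases and fell to 0.06 without KO replicate 4 and to 0.08 without KO replicate 7. With this shift of all genes, the members above 0 came to 41 of 59 with scaling to the same total and to 36 of 59 without Lars2 in it. The share of all genes tested above 0 under these scalings is not given, so these counts are not read as a trait of the members.

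Summed over members, both subunits overlapped between the labels. The large subunit summed to 1081 ± 117 (SD, n = 6) under the WT label, from 993 to 1298, and to 1104 ± 180 (SD, n = 6) under the KO label, from 868 to 1283. The small subunit summed to 555 ± 53.9 (SD, n = 6), from 487 to 651, and to 601 ± 103 (SD, n = 6), from 468 to 760. The highest small-subunit sum was that of KO replicate 7. The ratio of small to large was 0.515 ± 0.0325 under the WT label and 0.549 ± 0.0781 under the KO label (SD, n = 6), highest in KO replicate 2 (0.651) and KO replicate 7 (0.635). Differences were smaller than the spread within the KO label in each of these measures. The members took 0.0850% ± 0.0201 of the library signal under the WT label and 0.0926% ± 0.0193 under the KO label (SD, n = 6). This share was higher under the KO label in 6 of 6 same-numbered pairs, and in 5 of 6 with Lars2 left out of the total, while the labels overlapped. The summed signal of the members was higher under the KO label in 3 of 6 of these pairs. Scaling to the same total also raised the median of all genes tested, as given above. The share rests on the total, of which Lars2 alone, the mitochondrial leucyl-tRNA synthetase gene, took 15.6% to 36.2%. In both labels replicates 2 and 3 were low in the share and replicate 6 was high.

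**Figure D3:**
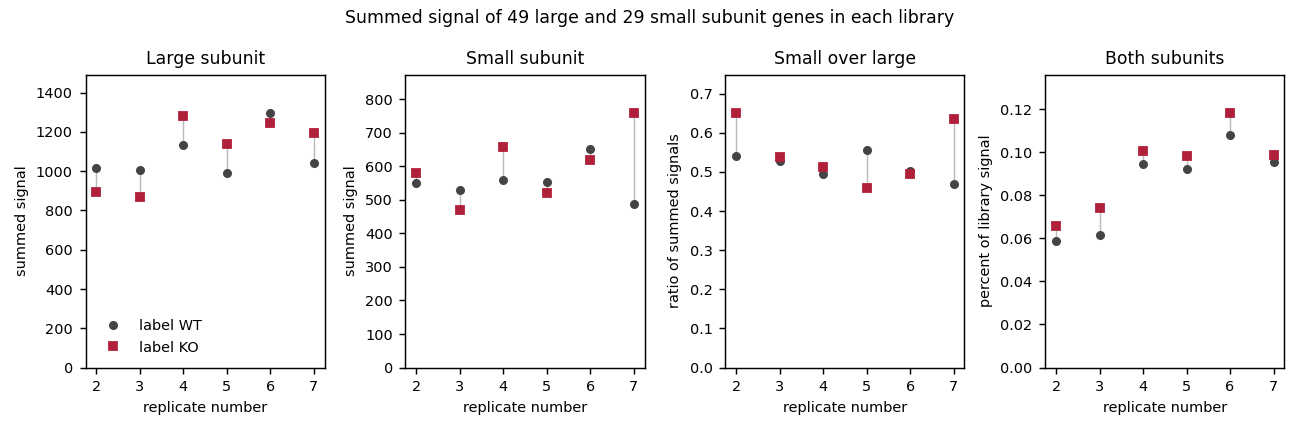
Summed signal of the 49 large and 29 small subunit genes, their ratio, and the percent of the library signal taken by all 78, by replicate number (horizontal axis), for the libraries labelled WT (circles) and KO (squares). Grey lines join libraries with the same number. The small-subunit sum peaks in KO replicate 7 at 760.

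The same libraries were often the extreme ones. KO replicate 4 was the highest of the 12 for 15 of 59 members (25.4%, against 14.0% of all genes tested) and KO replicate 7 for 12 (20.3%, against 14.9%), among them 8 of 22 of the small subunit (36.4%). KO replicate 3 was the lowest for 13 members (22.03%, against 11.0%) and KO replicate 2 for 11 (18.6%, against 9.94%). Libraries at both ends therefore carried the KO label.

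Mrpl4, a large-subunit protein of bacterial origin, was the member with the smallest limma p. Its gene lies at chr9:21002738-21008839 on the plus strand (GRCm38, ENSMUSG00000003299.10). Its signal was 8.57, 9.69 and 12.1 (lowest, median and highest of 6) under the WT label and 10.4, 14.5 and 25.3 under the KO label. KO replicates 4 and 7 were highest, and the labels overlapped, 4 of 6 KO libraries lying above every WT library. The log2 fold change was 0.61 ± 0.250 (SE), or 1.53-fold, with an interval of 0.08 to 1.14 (limma p = 0.0267, adjusted p = 0.9996; exact permutation p = 0.0108). Without KO replicate 4, without KO replicate 7, or with scaling to the total without Lars2, the unadjusted limma p was 0.0725, 0.0632 and 0.0826.

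Mrps7, a protein of the head of the small subunit, was the lowest by p in the other direction. Its gene lies at chr11:115603925-115608036 on the plus strand (ENSMUSG00000046756.10) and overlaps Gga3 and Mif4gd on the other strand. Its signal was 19.2, 24.7 and 42.8 (lowest, median and highest of 6) under the WT label and 11.8, 17.7 and 30.4 under the KO label. WT replicates 4 and 6 were highest and KO replicates 2, 3 and 5 lowest. The log2 fold change was -0.59 ± 0.263 (SE) with an interval of -1.15 to -0.03 (limma p = 0.0412, adjusted p = 0.9996; exact permutation p = 0.0606). Without any 1 of these 5 libraries, the unadjusted limma p was 0.0811 to 0.102, and with scaling to either total it was 0.116 and 0.151.

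Among members of the large subunit, Mrpl42, gained in mitochondria, was 21.7 ± 3.69 under the WT label and 28.0 ± 4.83 under the KO label (SD, n = 6), from 17.4 to 26.0 with a median of 21.1 and from 21.9 to 34.0 with a median of 28.1. KO replicates 6 and 7 were highest, and the labels overlapped. The log2 fold change was 0.36 ± 0.179 (SE; limma p = 0.0638; exact permutation p = 0.0325). Mrpl12, the stalk protein that also binds the mitochondrial RNA polymerase, was 15.3 to 43.7 (median 26.9) and 21.1 to 43.0 (median 38.0), at 0.40 on the log2 scale (exact permutation p = 0.141). Mrpl19 had the most negative value of all members, from 6.61 to 22.4 (median 13.4) under the WT label and from 5.40 to 11.0 (median 7.95) under the KO label, a log2 fold change of -0.61 ± 0.321 (SE; exact permutation p = 0.0736). It overlaps Gcfc2 on the other strand. Mrpl43, which shares a locus with Twnk, the mitochondrial DNA helicase, was at -0.30 on the log2 scale (exact permutation p = 0.281).

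The 3 members with the highest mean signal had log2 fold changes near 0. Mrpl1, at the L1 stalk where used tRNA leaves, was 51.5 to 115 (median 61.2) under the WT label and 47.5 to 123 (median 72.8) under the KO label, a log2 fold change of 0.11 with an interval of -0.41 to 0.64. Mrpl24 was 54.6 to 74.0 (median 72.9) and 45.9 to 78.4 (median 65.2), with -0.10 and an interval of -0.43 to 0.23. Mrpl33 was 54.7 to 66.1 (median 61.2) and 36.9 to 93.0 (median 60.7), with -0.00 and an interval of -0.42 to 0.41. For these 3 genes the interval leaves out a change beyond 1 in either direction. Mrpl2, near the peptidyl transferase centre, had -0.04 (-0.86 to 0.78), and Mrpl45, which anchors the ribosome to the inner membrane near the tunnel exit, had 0.05 (-0.53 to 0.64).

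Of the small subunit, Mrps5, at the mRNA entry side, had the largest positive value. Its signal was 9.12, 16.7 and 29.02 (lowest, median and highest of 6) under the WT label and 14.8, 25.2 and 53.1 under the KO label, where KO replicate 7 stood highest. The log2 fold change was 0.62 ± 0.299 (SE; limma p = 0.0546; exact permutation p = 0.0844). Mrps25 was 6.65 to 11.6 (median 8.74) and 7.23 to 17.9 (median 13.3), a log2 fold change of 0.52 ± 0.264 (SE; limma p = 0.0696; exact permutation p = 0.0368). Mrps22, gained in mitochondria, was 29.7 to 43.6 (median 35.3) and 13.5 to 38.2 (median 28.9), with KO replicate 7 lowest, a log2 fold change of -0.45 ± 0.225 (SE; exact permutation p = 0.0649). KO replicate 7 was thus the highest library for Mrps5 and the lowest for Mrps22. Mrps16 had -0.41 (exact permutation p = 0.316).

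**Figure D4:**
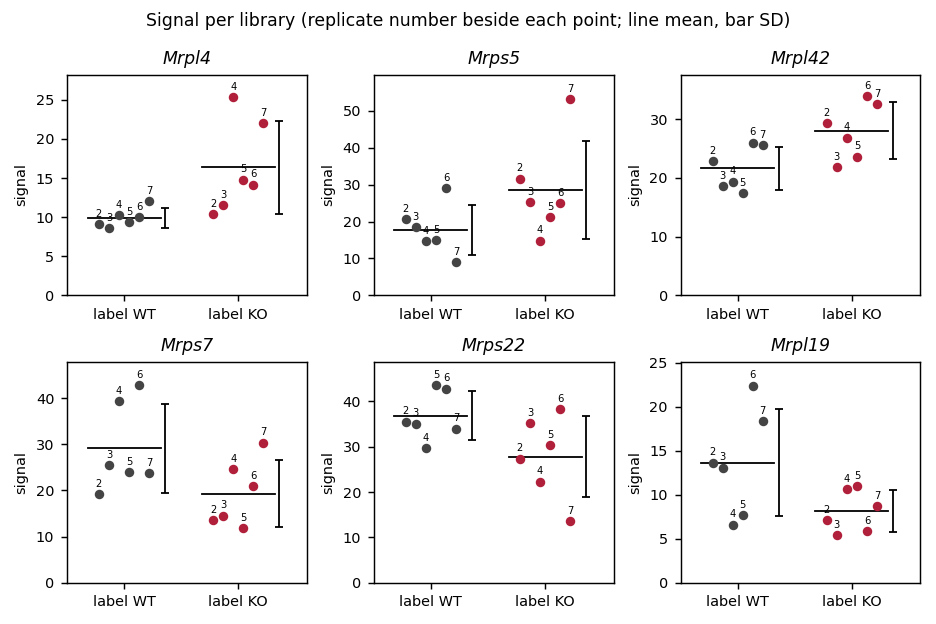
Signal of Mrpl4, Mrps5, Mrpl42, Mrps7, Mrps22 and Mrpl19 in each library (vertical axis, replicate number beside each point) by label; the line is the mean and the bar the SD of 6 libraries. In all 6 genes the labels overlap.

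The members nearest the minimum mean signal were Mrps11, Mrps27 and Mrpl11. Mrps11, whose gene lies head to head with Mrpl46 and overlaps it, was 3.73 to 11.2 (median 8.59) and 4.52 to 33.2 (median 9.90), with KO replicate 7 highest, at 0.45 on the log2 scale (exact permutation p = 0.348). Mrps27 had 0.35 (exact permutation p = 0.221) and Mrpl11 -0.25 (exact permutation p = 0.429).

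The Mrps18 family has 3 members, of which Mrps18a sits in the large subunit and Mrps18b and Mrps18c in the small subunit. Mrps18a was 12.4 to 17.4 (median 14.4) and 7.18 to 20.4 (median 15.1), a log2 fold change of -0.02 (-0.53 to 0.50). Mrps18b was 13.6 to 31.97 (median 16.6) and 11.7 to 41.3 (median 29.3), a log2 fold change of 0.48 (-0.14 to 1.10; exact permutation p = 0.162). Mrps18c, below the minimum, was 5.04 to 11.3 (median 7.83) and 6.21 to 16.2 (median 9.44). No member of the family separated the labels. Mrps30, named for the small subunit and placed in the large, was 41.6 to 60.7 (median 54.0) and 38.5 to 66.5 (median 50.7), with -0.06 (-0.40 to 0.27).

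Of the 19 members below the minimum, exact permutation tests gave an unadjusted p under 0.05 for Mrps21 and Mrps23, against 2.19% of the 12649 genes of the table with a mean signal above 0 and under 10, and adjusted p = 1. That share takes in genes seen in very few libraries, such as Ltf and Camp, for which so small a p cannot occur. Of the 19 members, only 2 were at 0 in any library, so the share is not a like background for them. Mrps21 was 5.24 to 12.8 (median 8.21) under the WT label and 3.45 to 7.45 (median 5.80) under the KO label (exact permutation p = 0.0346). Mrps23 ran the other way, from 2.87 to 7.65 (median 5.15) to 5.92 to 12.9 (median 7.33; exact permutation p = 0.0498). Mrps12, at the decoding centre, was 8.90 ± 4.45 and 8.39 ± 6.39 (SD, n = 6). Mrps36, which is now placed in the alpha-ketoglutarate dehydrogenase complex and not in the ribosome, was 4.68 to 10.5 (median 7.65) and 5.81 to 18.3 (median 10.7; exact permutation p = 0.167).

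The other genes of mitochondrial translation were also without a call after adjustment. Of 43 listed genes in the table, 31 were tested, namely all 5 mitoribosomal proteins with other names, 12 of 15 translation factors and 14 of 23 assembly factors. By limma, 0 of the 31 had an unadjusted p under 0.05 (3.67% of all genes tested), and 14 of 31 were above 0 (50.7% of all genes tested). By exact permutation test 1 did (3.83% of all genes tested), Mterf3, an assembly factor of the large subunit, at 25.2 ± 5.83 and 33.7 ± 7.83 (SD, n = 6; exact permutation p = 0.0476, limma p = 0.0593). Dap3, a GTP-binding protein of the small subunit, had a log2 fold change of -0.01, and Tufm, the elongation factor that brings tRNA to the ribosome, one of 0.05. Lars2 was 516754 under the WT label and 473581 under the KO label, a log2 fold change of -0.14 with an interval of -2.02 to 1.75. Its signal was far above that of every member, and what its reads derive from was not tested.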

How the data were processed

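LSK RNA-seq of 12 mice, 6 labelled WT and 6 labelled FancgKO, was used. Signal was deposited by the authors as normalized counts per gene, with kallisto named in the submitters' processing notes; mouse build, annotation and size factor method are not given in the sources used here, and 0 columns were unused. No raw counts were analysed, so no count model was fitted. Positions come from GENCODE M21 of GRCm38, lengths are means over a gene's transcripts, and reads per library are approximate, from the spacing of the low values. Genes whose mean signal reached 10 were fitted with limma 3.58.1 in R 4.3.3 on log2(signal + 1), with trend, two-sided, without covariates, and p was adjusted by Benjamini-Hochberg over all 8887 genes. This scale understates changes of low genes. Two-sided exact permutation tests took the difference of mean log2 values and were also run in R 4.3.3. Tests were checked on simulated data. Members and lists were chosen with earlier results of these data known. Genes named are the 5 smallest limma p in each direction, members past p under 0.05 and 0.5 in log2 fold change, members without overlap, the 3 highest and 3 lowest levels, and fixed roles. The windows printed, Mrps21, Mrps23, Itga2b and the genes highest or lowest per kb were picked after values were seen. P-values set the difference between labels against the spread between libraries, with 1 library per mouse. That spread includes the noise of counting reads. Alternatives are described in the closing section.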

Additional observations from a re-analysis of the deposited data

Results flagged for a closer look

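Of 52 groups of 6 libraries examined for a library far from the others, 3 were picked out, and chance would give about 2.6. Mrps11 was 33.2 in KO replicate 7 and 4.52 to 12.9 in the other KO libraries. Mrps18b was 31.97 in WT replicate 6 and 13.6 to 17.4 in the other WT libraries. Mrps18c was 16.2 in KO replicate 7 and 6.21 to 9.93 in the other KO libraries.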

How the results depend on the processing

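The count of members with an unadjusted limma p under 0.05, 2 of 59, was 0 with a mean signal of at least 50 (5 members left, 2.92% of all genes tested), 0 with scaling to the same total without Lars2 (1.42%), 5 of 59 without the trend (3.72%), 3 of 78 without a filter (3.88%), and 1 to 4 with each library left out (1 without KO replicate 2 or KO replicate 7, 4 without WT replicate 6 or KO replicate 3). No adjusted p of a member passed in any of these. For the counts with libraries left out in this section, the share of all genes tested is not given. No comparison of those counts with all genes is made here. The small-subunit median log2 fold change was -0.0625 with a mean signal of at least 50, which leaves 1 gene, and 0.06 to 0.18 with each library left out. The large-subunit median was -0.10 to 0.04 with each library left out. For the partner genes the count of 0 became 0 to 1 with each library left out. Same-numbered libraries share only a number. Their deviations correlated from 0.086 to 0.362, above 0.1 in 4 of 6 pairs, and 9 of 12 libraries correlated best with their own number, a hint from the data and not the design. With the replicate block, 3 of 59 members (Mrpl4, Mrps7 and Mrps22) passed, against 5.36% of all genes, and 1 partner gene (Eral1), with 0 members after adjustment. In exact sign-flip tests of these pairs, Mrpl4 and Mrpl42 were higher in 6 of 6 (p = 0.0312 each, the smallest such a test can give). The sign-flip test was not run over all genes tested, so no share of all genes stands beside these 2 of 59 members. Without WT replicate 3 and KO replicate 7, an alternative chosen after seeing the data, 2 members passed (Mrpl30 and Mrps7; Mrpl4 had 0.48), with subunit medians of -0.11 (large) and 0.07 (small). Log2 fold changes near 0 changed sign, under the scalings by about as much as all genes moved (their median went to 0.0819 with scaling to the same total and 0.0569 without Lars2 in it). Mrpl33 was 0.000716 with a pseudocount of 5, 0.0775 with scaling to the same total and 0.0531 without Lars2 in it. Under these 2 scalings Mrpl2 was 0.0372 and 0.0145, Mrps18a 0.0593 and 0.0370, and Mrps30 0.0171 with the first. With each library left out, Mrpl33 ran from -0.12 to 0.14, Mrpl45 from -0.10 to 0.23, Mrps18a from -0.11 to 0.17, Mrpl2 from -0.30 to 0.22, Mrps30 from -0.14 to 0.0102 and Mrpl1 from -0.0361 to 0.27. For the other changes the cause was not tested. Members tested had a median of roughly 23.1 reads per library.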
